A study of Homo sapiens with 6 samples.

Results

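The transcripts encoded by the human mitochondrial genome were followed in neuroblastoma cells depleted of ACSS2, the nuclear and cytosolic enzyme that makes acetyl-CoA from acetate. All genes whose name begins with MT- were taken from the count table, which gave 37 of its 58735 genes: 13 mRNAs, 2 rRNAs and 22 tRNAs. The cells carry the label BE(2)-C, a neuroblastoma cell line, and had been infected with lentivirus for a non-silencing hairpin (NS, genotype given as wildtype, n = 3 libraries) or for a hairpin against ACSS2 (shACSS2, genotype given as ACSS2 deficiency, n = 3 libraries). Both lines were selected with puromycin and grown in DMEM with calf serum. The titles write siACSS2, and in 1 passage the treatment text names the second line shNgBR. The group names used here follow the hairpin of the treatment text, and the conflict is not settled by the sources. The labels give no hairpin sequence, no number of clones and no statement that libraries came from separate cultures, so p-values measure the spread between these libraries, which may be technical.

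Mitochondrial DNA is a small circle that is transcribed from both strands into long precursor RNAs. Most of its mRNAs and both rRNAs lie on the transcript of the heavy-strand promoter, while MT-ND6 and several tRNAs come from the light-strand promoter. The precursors are cut mainly at the tRNAs that sit between the larger genes, and all the proteins encoded are subunits of complexes I, III and IV of the respiratory chain or of ATP synthase. Transcript levels afterwards depend on mitochondrial DNA copy number, on transcription and on how long each RNA lasts, and bulk RNA counts cannot separate these. Fewer mitochondria per cell and less RNA per mitochondrion cannot be told apart either.

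Libraries held 16617885 to 20831599 counts. ACSS2 itself had 366, 387 and 438 counts in NS and 75, 84 and 110 in shACSS2, a fall of its level from 20.5 ± 0.324 to 5.32 ± 0.762 CPM, the deposited counts scaled to a common library size (SD, n = 3 each). In what follows a change is the log2 fold change of shACSS2 minus NS with its standard error, and p-values are those of edgeR's quasi-likelihood test adjusted over all genes tested. For ACSS2 the change was −1.94 ± 0.145 (adjusted p = 1.95e-06). Of 11 markers of adrenergic neuroblastoma, 3 (PHOX2A, TH and TFAP2B) had 0 counts in every library and 2 (GATA3 and ISL1) reached a mean of 5 CPM. The summed level of the 11 ran from 38.4 to 44.1 CPM in NS and from 40.3 to 47.8 CPM in shACSS2. Of 6 mesenchymal or Schwann-like markers 3 exceeded 5 CPM (VIM, FN1 and PRRX1), with a summed level of 361 to 422 CPM in NS and 349 to 400 CPM in shACSS2. Of 4 fibroblast markers COL1A1 exceeded 5 CPM, with a sum of 25.2 to 28.5 CPM in NS and 26.9 to 37.3 CPM in shACSS2, and of the 2 blood cell markers HBB was at 0 and PTPRC at most at 0.0960 CPM. Of the shACSS2 libraries, replicate 1 stood apart in its relation to base composition. Across genes, its deviation from the group mean had a Spearman coefficient of −0.603 with GC content, against 0.475 and 0.388 in the other two. The protein-coding mitochondrial genes had 39.6% to 47.7% GC, below the median of 48.6% over genes tested. Where the call of a member ended without that library or after a GC and length correction, this is given. For the nuclear genes such values are given only in part.

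Several members touch or overlap each other, which bears on how their reads can be counted. These sequences show 2 of the overlaps on the heavy strand and the 3 most abundant tRNA genes, whose behaviour is described further on. They are GENCODE v29 transcripts (GRCh38), matched by gene identifier. MT-ND4L (M:10470-10766, plus strand) ends inside MT-ND4 (M:10760-12137, plus strand), and the 7 shared bases are in capitals. MT-ATP8 (M:8366-8572) ends inside MT-ATP6 (M:8527-9207), with 46 shared bases in capitals. MT-ATP6 in turn ends on M:9207, the base where MT-CO3 begins, an overlap that is not shown. In the tRNA genes MT-TN (asparagine, M:5657-5729), MT-TC (cysteine, M:5761-5826) and MT-TP (proline, M:15956-16023), all transcribed from the minus strand of the reference, the capitals mark the anticodon.
end of MT-ND4L: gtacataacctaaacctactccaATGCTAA
start of MT-ND4: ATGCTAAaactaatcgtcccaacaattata
end of MT-ATP8: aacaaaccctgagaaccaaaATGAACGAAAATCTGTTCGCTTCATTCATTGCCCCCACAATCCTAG
start of MT-ATP6: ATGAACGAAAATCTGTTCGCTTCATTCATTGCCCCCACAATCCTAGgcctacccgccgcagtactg
MT-TN: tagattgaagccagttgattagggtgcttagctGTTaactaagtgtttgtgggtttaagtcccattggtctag
MT-TC: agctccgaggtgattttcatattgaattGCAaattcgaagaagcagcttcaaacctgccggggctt
MT-TP: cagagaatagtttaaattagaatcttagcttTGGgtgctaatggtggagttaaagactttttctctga

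Mitochondrial RNA took a smaller part of every shACSS2 library than of any NS library. Of all counts, 1.85%, 1.25% and 2.20% fell on the 37 genes in NS and 0.692%, 0.751% and 0.775% in shACSS2. The groups did not overlap, the means were 1.77 ± 0.48% and 0.740 ± 0.0429% (SD, n = 3 each), and the ratio of shACSS2 to NS was 0.418. NS libraries differed among themselves more than shACSS2 libraries did, with replicate 2 the lowest and replicate 3 the highest of the 3. The mRNAs alone had a ratio of 0.422 and the rRNAs one of 0.381, while the tRNAs had one of 0.795.

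**Figure D1:**
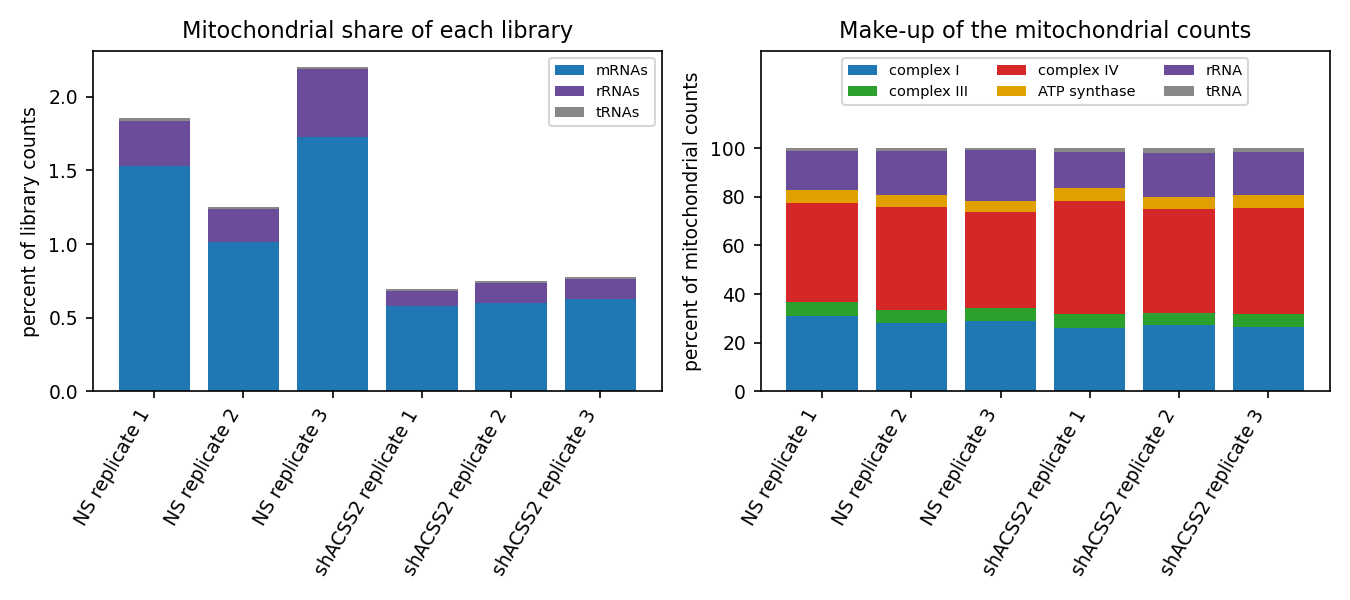
Left, percent of each library's counts on mitochondrial mRNAs, rRNAs and tRNAs; right, percent of the mitochondrial counts by role, for the 6 libraries. NS libraries hold 1.25% to 2.20% and shACSS2 libraries 0.692% to 0.775%, complex IV genes take 39.5% to 46.3% of the mitochondrial counts in every library.

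The main test compared shACSS2 with NS over 16210 genes, with adjustment of p-values over all of them. The 13 mRNAs and 2 rRNAs and 7 of the 22 tRNAs had enough counts to enter it. Of these 22 genes 16 fell, 0 rose and 6 did not pass the test at an adjusted p of 0.05 (edgeR), where 9.64% of all genes tested fell. All 13 mRNAs and both rRNAs fell, as did MT-TP. Of the 22, 12 fell at least 2-fold, which 1.62% of all genes tested did. Among the 2195 nuclear genes whose mean reached 100 CPM, which are closer to the mRNAs in level, 9.11% fell and 0.273% fell at least 2-fold. The median log2 fold change of the 13 mRNAs was −1.16, against 0.00245 over all genes tested. Without shACSS2 replicate 1, 9 of the members fell (7 mRNAs), where 12.5% of all genes tested fell, and the median of the mRNAs was −1.15. All 6 mRNA calls lost there were in complex I. At an adjusted p of 0.01, 15 members fell, where 4.19% of all genes tested did. In 17 of the 22 the groups did not overlap and shACSS2 was lower, against 18.7% of all genes tested.

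**Figure D2:**
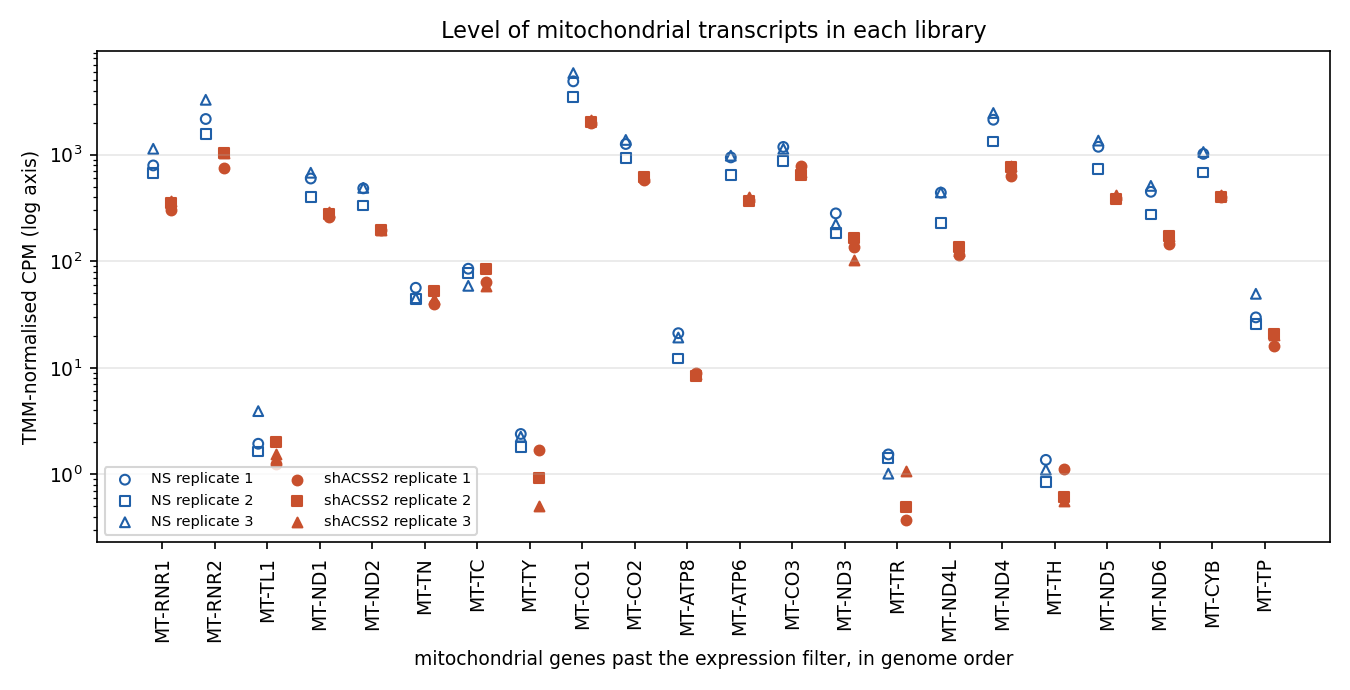
TMM-normalised CPM (log axis) of the 22 mitochondrial genes tested, in genome order, for each NS (open) and shACSS2 (filled) library. All 13 mRNAs and both rRNAs lie lower in each shACSS2 library than in each NS library, whereas MT-TN and MT-TC overlap.

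The rRNAs of the mitochondrial ribosome lie first on the heavy-strand transcript. MT-RNR1 (M:648-1601), the RNA of the small subunit, had 793, 668 and 1136 CPM in NS and 305, 355 and 368 CPM in shACSS2. Its highest shACSS2 library was below its lowest NS library, and the change was −1.34 ± 0.151 (adjusted p = 5.8e-05). MT-RNR2 (M:1671-3229), the RNA of the large subunit, had 2163, 1574 and 3276 CPM in NS and 758, 1046 and 1034 CPM in shACSS2. Its NS libraries spread widely, and the change of −1.31 ± 0.259 had the largest error of the mRNAs and rRNAs (adjusted p = 0.0138). That call ended without shACSS2 replicate 1 (adjusted p = 0.124), without shACSS2 replicate 2, without the count filter, at an adjusted p of 0.01 and after the GC and length correction. Against 100 mRNA counts there were 19.9, 22.2 and 26.6 rRNA counts in NS and 17.8, 22.7 and 22.1 in shACSS2, values that overlapped between groups.

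Complex I, the NADH dehydrogenase, takes 7 of its subunits from mitochondrial DNA, and these held both the largest and some of the smaller falls. MT-ND4L (a small membrane subunit) had 441, 229 and 442 CPM in NS and 114, 137 and 124 CPM in shACSS2. The change of −1.57 ± 0.229 (adjusted p = 0.00292) was the lowest of the 22 genes. Reads that touch the 7 bases shared by MT-ND4L and MT-ND4 belong to both genes, and the labels do not say how the counting treated them. MT-ND4, a proton-pumping subunit whose gene shares the bases shown with MT-ND4L, had 2129, 1333 and 2463 CPM in NS and 626, 768 and 782 CPM in shACSS2 (change −1.45 ± 0.187, adjusted p = 0.000618). MT-ND5 (M:12337-14148), another pumping subunit, stood at 1187, 739 and 1356 CPM against 395, 383 and 419 CPM (change −1.46 ± 0.168, adjusted p = 0.000133). These 3 genes are neighbours, separated only by tRNAs or overlapping, and in each the weakest NS library, replicate 2, still exceeded every shACSS2 library.

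The other complex I genes had smaller falls. MT-ND1 (M:3307-4262), a subunit next to the quinone site, had 597, 404 and 677 CPM in NS and 260, 280 and 289 CPM in shACSS2 (change −1.02 ± 0.143, adjusted p = 0.000337). MT-ND2 (M:4470-5511), also a pumping subunit, had 483, 333 and 488 CPM in NS and 196 CPM in each of the shACSS2 libraries (change −1.15 ± 0.125, adjusted p = 4.52e-05). MT-ND3 (M:10059-10404), a small subunit, had 281, 184 and 222 CPM in NS and 135, 166 and 103 CPM in shACSS2. Its groups came close to each other, and the change was −0.77 ± 0.166 (adjusted p = 0.0076). MT-ND6 (M:14149-14673, minus strand) is the one mRNA of the light strand, and its levels were 449, 275 and 510 CPM in NS and 146, 171 and 174 CPM in shACSS2 (change −1.33 ± 0.183, adjusted p = 0.000808). Per 100 counts of the heavy-strand mRNAs there were 3.11, 2.80 and 3.17 MT-ND6 counts in NS and 2.51, 2.84 and 2.83 in shACSS2, which overlapped. Of these calls 6 did not survive the loss of shACSS2 replicate 1: the adjusted p was then 0.0539 for MT-ND1, 0.196 for MT-ND3, 0.0515 for MT-ND4, 0.0898 for MT-ND4L, 0.0503 for MT-ND5 and 0.0805 for MT-ND6, while MT-ND2 stayed past the test. After the GC and length correction MT-ND3 was no longer past the test (adjusted p = 0.0655), and with the replicate number as a block as well this held also for MT-ND4, MT-ND4L and MT-ND6.

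Complex III has a single mitochondrially encoded subunit, cytochrome b. MT-CYB (M:14747-15887) had 1018, 680 and 1060 CPM in NS and 403, 401 and 422 CPM in shACSS2 (change −1.17 ± 0.133, adjusted p = 5.91e-05). Levels in shACSS2 were tight and well below every NS library.

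The 3 large subunits of cytochrome c oxidase, complex IV, differed among themselves. MT-CO1 (M:5904-7445), which holds the oxygen-binding site, was the most abundant mitochondrial RNA per kilobase as well as in total counts. It had 4881, 3468 and 5835 CPM in NS and 1967, 2036 and 2110 CPM in shACSS2 (change −1.21 ± 0.14, adjusted p = 6.13e-05). MT-CO2 (M:7586-8269), which takes electrons from cytochrome c, had 1260, 928 and 1376 CPM in NS and 573, 622 and 620 CPM in shACSS2 (change −0.97 ± 0.123, adjusted p = 0.000131). MT-CO3 (M:9207-9990) had 1183, 879 and 1136 CPM in NS and 777, 639 and 692 CPM in shACSS2. At −0.60 ± 0.115 (adjusted p = 0.00304) its change was the nearest to 0 of the 13 mRNAs. All 3 calls held under each of the 18 alternative analyses.

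ATP synthase has 2 mitochondrial subunits, both in the membrane part of the enzyme. MT-ATP6 had 943, 640 and 979 CPM in NS and 373, 371 and 405 CPM in shACSS2 (change −1.16 ± 0.132, adjusted p = 5.80e-05). MT-ATP8 had 21.1, 12.2 and 19.2 CPM in NS and 9.03, 8.32 and 8.79 CPM in shACSS2 (change −1.01 ± 0.18, adjusted p = 0.00192). Both are read from 1 messenger, and yet in NS the counts per kilobase were 84.6 CPM for MT-ATP8 and 1254 CPM for MT-ATP6. Reads that touch the 46 bases in capitals belong to both genes, and the labels do not say how the counting treated them. The level of MT-ATP8 is therefore uncertain, and its change is that of the reads left to it.

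**Figure D3:**
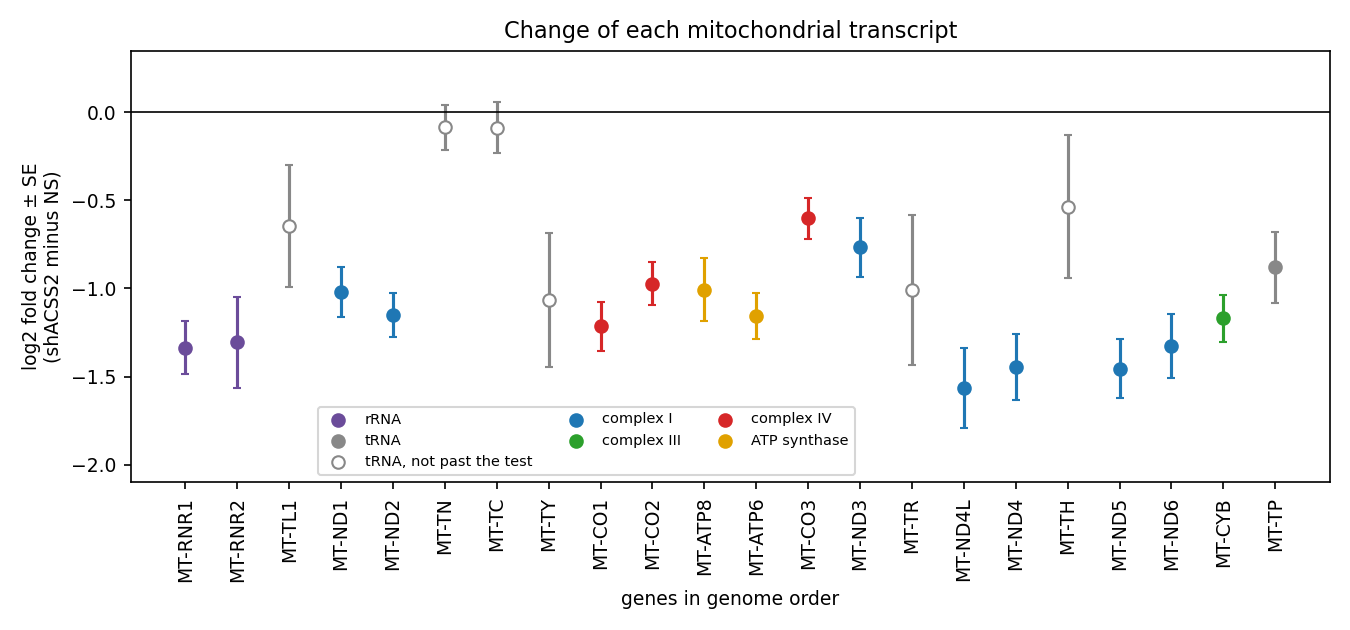
Log2 fold change (shACSS2 minus NS, bars ± SE) of the 22 genes tested in genome order, coloured by role; open points did not pass the test. MT-ND4L, MT-ND4 and MT-ND5 lie near −1.5, MT-CO3 and MT-ND3 at −0.60 and −0.77, and MT-TN and MT-TC near 0.

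Per kilobase of gene, the mRNA and rRNA levels in NS ran from 84.6 CPM for MT-ATP8 through 418 CPM for MT-ND2 to 3066 CPM for MT-CO1. MT-CO2 followed at 1737 CPM per kilobase, and MT-RNR2, MT-ND4 and MT-CO3 lay close together at 1500, 1433 and 1360 CPM per kilobase. In shACSS2 MT-CO1 was again first at 1321 CPM per kilobase, with MT-CO3 at 896 and MT-CO2 at 884. MT-ND5 was among the least abundant in both groups, at 604 and 220 CPM per kilobase. Mitochondrial rRNAs carry only short tails, and how well the messenger RNA kit kept them was not tested.

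Of the 7 tRNA genes tested 1 fell and 6 did not pass the test. MT-TN, the asparagine tRNA gene, had 56.4, 43.9 and 45.0 CPM in NS and 39.6, 52.9 and 44.4 CPM in shACSS2 (change −0.08 ± 0.128, adjusted p = 0.693). MT-TC, the cysteine tRNA gene, had 85.1, 77.0 and 58.8 CPM in NS and 64.3, 85.2 and 58.3 CPM in shACSS2 (change −0.09 ± 0.147, adjusted p = 0.726). In both genes the groups overlapped throughout, with 831 to 1494 counts in NS libraries and 636 to 1394 in shACSS2 libraries. The sign of both fold changes is unsettled, since it turned positive in 4 of the 18 alternatives for each gene. The 2 genes lie side by side on the light strand with 31 bases between them, the place of the light-strand origin of replication, and they sit between MT-ND2 and MT-CO1, which both fell. From which strand the reads on MT-TN, MT-TC and MT-TP came was not tested.

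MT-TP, the proline tRNA gene at the other end of the coding region, had 29.7, 25.9 and 49.5 CPM in NS and 16.1, 20.5 and 20.5 CPM in shACSS2. It fell (change −0.88 ± 0.2, adjusted p = 0.00942), and the call ended without shACSS2 replicate 1 (adjusted p = 0.193) and after the GC and length correction (adjusted p = 0.224). The other 4 tRNA genes tested had at most 3.92 CPM in any library. MT-TY (tyrosine) stood at 2.39, 1.80 and 2.26 CPM in NS and 1.68, 0.917 and 0.504 CPM in shACSS2, which did not overlap, with a change of −1.06 ± 0.379 (adjusted p = 0.0641) that passed the test in 5 of the 18 alternatives. The changes of MT-TR, MT-TL1 and MT-TH were −1.01 ± 0.426, −0.65 ± 0.346 and −0.53 ± 0.406 (adjusted p = 0.112, 0.211 and 0.387), not past the test at this depth. MT-TR passed the test in 1 of the 18 alternatives.

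The remaining 15 members, all tRNA genes, were too scarce to be tested. MT-TA (alanine) and MT-TW (tryptophan) had 0 of 108405728 counts, for which the upper limit is 0.0277 CPM (3 counts over all libraries, counting error only, since reads are not independent molecules). Of the others, 11 had between 1 and 24 counts in all 6 libraries together. MT-TG (glycine) reached 72 in all, with 21, 9 and 25 counts in NS and 5, 5 and 7 in shACSS2, and MT-TT (threonine) 35, with 8, 6 and 6 counts in NS and 4, 6 and 5 in shACSS2. MT-TS2, a serine tRNA gene, had 8, 7 and 7 counts in NS and 1, 0 and 1 in shACSS2. Mature tRNAs are short and folded, and whether these counts came from them or from longer precursors was not tested.

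The make-up of mitochondrial RNA was examined by taking each gene's share of the mitochondrial counts in each library, which does not depend on the scaling between libraries. In 8 of 22 genes (36.4%) the shares of the groups did not overlap, 5 of them higher and 3 lower in shACSS2. Levels of all 16210 genes tested did not overlap between groups in 36.3%, a percentage near that of the members, although levels and shares are different measures. The count of 8 is therefore not read as a result about the make-up, and the values that follow are a description. An exact two-sided permutation test over 3 against 3 libraries cannot go below p = 0.1, and these 8 genes reached that value (Benjamini-Hochberg adjusted 0.275 over the 22), so none passed a threshold of 0.05. MT-TC took 0.472%, 0.616% and 0.278% of mitochondrial counts in NS and 0.897%, 1.10% and 0.740% in shACSS2, 2.00 times as much on average. For MT-TN the shares were 0.313%, 0.351% and 0.213% in NS and 0.553%, 0.683% and 0.564% in shACSS2, 2.05 times as much. MT-CO3 had shares of 6.57%, 7.03% and 5.37% in NS and 10.8%, 8.25% and 8.79% in shACSS2.

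At the other end were the neighbours MT-ND4L, MT-ND4 and MT-ND5, with mean shares of 2.12 ± 0.309%, 11.4 ± 0.626% and 6.31 ± 0.352% in NS and 1.65 ± 0.111%, 9.53 ± 0.681% and 5.26 ± 0.293% in shACSS2 (SD, n = 3 each). MT-CO2 and MT-ND1 had slightly larger shares in shACSS2, at 7.97 ± 0.086% against 6.98 ± 0.456% and 3.64 ± 0.0272% against 3.25 ± 0.0596%. The share of MT-CO1 overlapped between groups, at 27.5 ± 0.338% and 26.9 ± 0.583%.

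**Figure D4:**
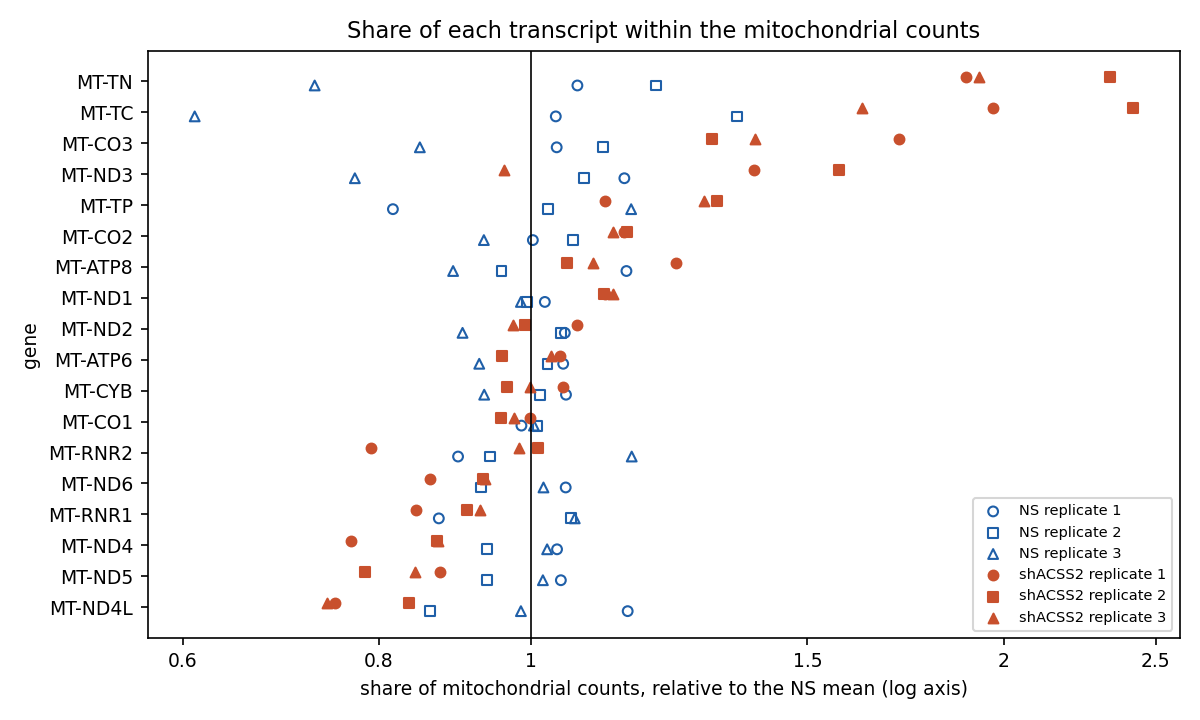
Share of the mitochondrial counts in each library divided by the NS mean share (log axis) for the 18 genes with a mean share of at least 0.1% in NS. The shACSS2 libraries of MT-TN and MT-TC lie near 2, those of MT-CO3 above every NS library, and those of MT-ND4, MT-ND5 and MT-ND4L below every NS library.

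Across the 13 mRNAs, the change had a Spearman coefficient of −0.478 with the order along the genome, −0.319 with gene length, 0.0714 with GC content and −0.126 with mean level. Across the 22 genes tested it was −0.617 with length, a value that sets short tRNA genes against long mRNAs. These are descriptions, since the genes share libraries and precursor transcripts. In 20 of the 22 genes tested replicate 2 was the lowest of the NS libraries, and in 14 replicate 3 was the highest of all libraries.

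Nuclear copies of mitochondrial DNA can take reads from the mitochondrial genes or give them up. Of 394 annotated pseudogenes of this kind, 51 had a count and 3 were tested, all from a single stretch of chromosome 1. MTATP6P1 (1:633696-634376) is 98.53% identical to MT-ATP6 over 681 bases with 10 mismatches, MTND2P28 (1:629640-630683) is 98.37% identical to MT-ND2, and MTCO1P12 (1:631074-632616) is 98.70% identical to MT-CO1. MTND2P28 had 367, 233 and 411 counts in NS and 127, 133 and 109 in shACSS2 and fell (change −1.24 ± 0.19, adjusted p = 0.000619). MTCO1P12, with 167, 88 and 145 counts against 51, 68 and 46, fell as well (change −1.07 ± 0.257, adjusted p = 0.011), a call that ended without NS replicate 1 (adjusted p = 0.083). MTATP6P1, with 648, 322 and 635 counts against 174, 322 and 220, did not pass the test (change −0.96 ± 0.301, adjusted p = 0.0608) but did so in 5 of the 18 alternatives. The next copies, MTND5P11 and MTCO1P28, had at most 8 counts in any library. The changes of MT-ND2, MT-CO1 and MT-ATP6 were −1.15, −1.21 and −1.16, and whether their reads came from the nuclear or the mitochondrial copy was not tested. All copies together had 2.70 to 4.29 counts per 1000 mitochondrial counts, with overlap between groups.

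**Figure D5:**
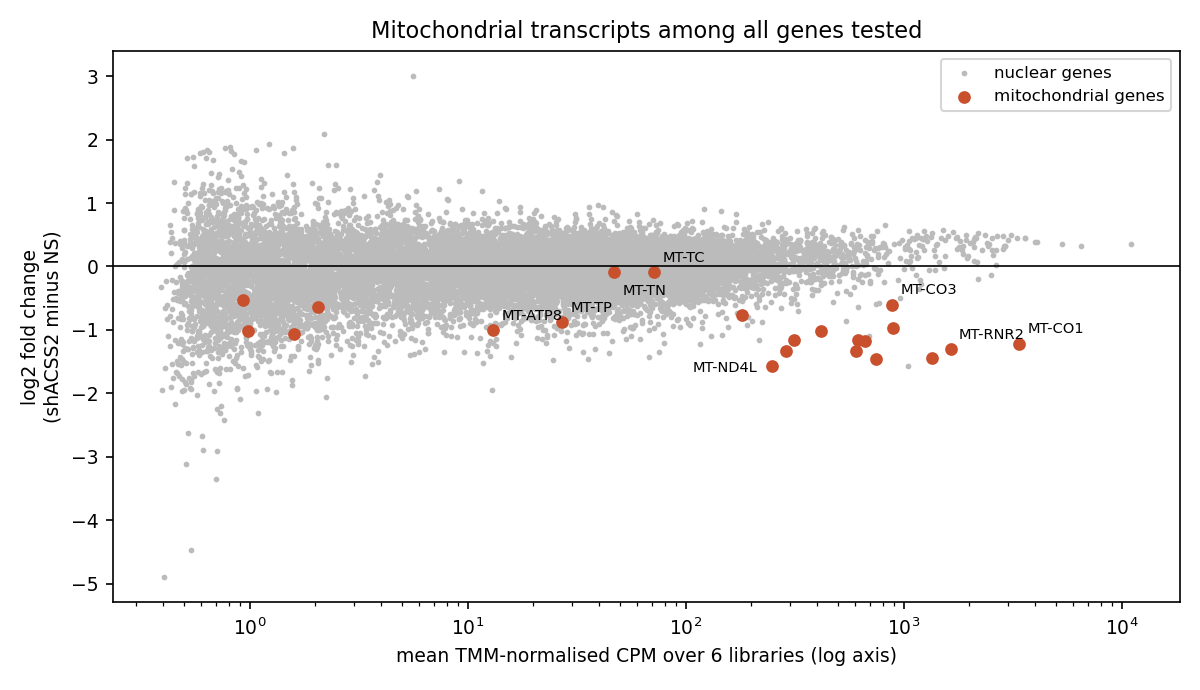
Log2 fold change (shACSS2 minus NS) against mean TMM-normalised CPM over the 6 libraries (log axis) for the 16210 genes tested, mitochondrial genes in colour. The mitochondrial mRNAs and rRNAs lie between −1.57 and −0.60, in a range that few nuclear genes of similar level reach, while MT-TN and MT-TC lie near 0.

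Most nuclear genes that express the mitochondrial genome did not pass the main test. Over 5 lists of transcription, RNA processing, RNA modification, mtDNA replication and biogenesis genes, 8 of 71 tested genes rose (11.3%, where 7.48% of all genes tested rose) and 1 fell (1.41%, where 9.64% did). POLRMT, the mitochondrial RNA polymerase, had 138 ± 3.14 CPM in NS and 139 ± 25.8 CPM in shACSS2 (SD, n = 3 each), and did not pass the test (change 0.02 ± 0.119, adjusted p = 0.942). For TFAM, which packages mtDNA and starts its transcription, the change was −0.11 ± 0.135 (adjusted p = 0.6), although it passed the test without shACSS2 replicate 1. TFB2M, the other initiation factor, stood at 0.53 ± 0.182 (adjusted p = 0.0552) and passed in 9 of the 18 alternatives. TEFM, the elongation factor, stood at 0.28 (adjusted p = 0.219), and POLG, the mtDNA polymerase, at 0.06 (adjusted p = 0.768).

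Of the 9 transcription genes TFB1M, which methylates the small rRNA, and MTERF3 rose, by 0.35 and 0.43 on the log2 scale. In the list on RNA processing, stability and decay 4 of 19 rose and 0 fell. LRPPRC, which with SLIRP protects mitochondrial mRNAs, had 382 ± 25.7 CPM in NS and 480 ± 44.6 CPM in shACSS2 (SD, n = 3 each) and rose (change 0.33 ± 0.0978, adjusted p = 0.0306). SLIRP (change 0.39 ± 0.117, adjusted p = 0.0336) and HSD17B10, a subunit of the enzyme that cuts the leading ends of tRNAs (change 0.34 ± 0.0924, adjusted p = 0.0212), rose too. The SLIRP call ended without shACSS2 replicate 1 (adjusted p = 0.0662). MRM3, an rRNA methyltransferase, was the 1 of 15 modification genes to rise. Among 19 genes of mtDNA replication and nucleotide supply SLC25A33, a carrier of pyrimidine nucleotides, rose (change 0.53 ± 0.119, adjusted p = 0.00754) and 0 fell. PPARGC1B, a coactivator of mitochondrial biogenesis, was the 1 of 9 biogenesis regulators to fall (change −0.40 ± 0.117, adjusted p = 0.0289). All of these calls ended without NS replicate 1, where 0 of the 71 genes rose and 0 fell, against 1.87% and 4.28% of all genes tested. Without NS replicate 3, 0 rose (2.2% of all genes) and PPARGC1B stayed past the test, a call also lost when NS replicate 2 or shACSS2 replicate 3 was omitted and after the GC and length correction. Without shACSS2 replicate 1, 14 rose and 7 fell, where 11% of all genes rose and 12.5% fell. Without shACSS2 replicates 2 and 3 in turn 4 and 3 rose (4.8% and 4.99% of all genes), and when scaled by library totals 2 rose (4.53% of all genes).

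The nuclear subunits of the complexes that the mitochondrial mRNAs serve showed a mixed picture. Of 73 tested subunits 11 rose (15.1%) and 3 fell (4.11%), where 7.48% of all genes tested rose and 9.64% fell, shares against which the counts by complex are also to be read. In complex I, 6 of 36 rose, with a median change of 0.19 over the 36, led by NDUFB1 at 0.67 ± 0.163 (adjusted p = 0.0115). The NDUFB1 call ended in 4 of the 18 alternatives. Among them were the fit without shACSS2 replicate 1 (adjusted p = 0.13) and the GC and length correction (adjusted p = 0.093). In the same complex 2 subunits fell. One of these, NDUFA7, had about 1 CPM and lost its call in 10 of the 18 alternatives, and the other, NDUFS1, had a change of −0.30 ± 0.0948 (adjusted p = 0.0413) and lost its call in 8. In complex III UQCR10, a small subunit, went from 89.4 ± 18.9 down to 48.5 ± 6.28 CPM (SD, n = 3 each) and fell past the test (change −0.88 ± 0.143, adjusted p = 0.000953), and this call held in each of the 18 alternatives, while the median of the 9 subunits was 0.15. In complex IV 2 of 11 rose (COX7B at 0.42 and COX5A at 0.35) and in ATP synthase 3 of 17, with ATP5MC1 at 0.50, ATP5MG at 0.47 and ATP5F1D at 0.37. Medians there were 0.14 and 0.21. Calls ended in 6 of the 18 alternatives for COX7B and for ATP5F1D, in 5 for COX5A, and in 3 for ATP5MC1 and for ATP5MG. The fit without shACSS2 replicate 1 was among those that ended the COX7B call (adjusted p = 0.242). Over all 73 subunits 1 rose without NS replicate 1, 0 without NS replicate 3, 18 without NS replicate 2, 5 without shACSS2 replicate 2 and 4 with library totals. Of all genes 1.87%, 2.2%, 6.85%, 4.8% and 4.53% rose in these fits. The number that fell was 1 without each of NS replicates 1, 2 and 3 and shACSS2 replicates 2 and 3.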

How the data were processed

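RNA of 3 NS and 3 shACSS2 libraries was sequenced after a messenger RNA library preparation, per the labels' protocols. Values in the deposited table are whole-number counts of reads for each gene, with no normalisation by the authors. Reads were handled, per the submitters' processing notes, with fastp, with the aligner HISAT2 2.0.5 and with the counter featureCounts 1.5.0-p3; DESeq2 (version written as 4.3.1) and the build hg19 are also named. Not given in the sources used here are the strand setting and the treatment of reads that match several genes or places. All 58735 identifiers were found in GENCODE v29, an annotation of GRCh38, whose positions are printed; the build of the alignment is therefore unsettled.

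The test was that of edgeR 4.0.16, run under R 4.3.3 (TMM factors, default expression filter, robust quasi-likelihood F test, group as the only term) over 16210 genes with Benjamini-Hochberg adjustment at 0.05; the procedure was tested on simulated data. "Rose" and "fell" refer to this test. Standard errors were obtained by dividing the absolute log2 fold change by √F. CPM values are TMM-normalised, except for cell markers (library totals). Sequences were aligned with Biopython 1.88. Members, gene lists and the rule for named genes were chosen with earlier results of these data known. The rule names every member, POLRMT, TFAM, TFB2M, TEFM, LRPPRC, SLIRP and POLG, from each list up to 3 genes past the test in each direction with the smallest p, the 5 most abundant nuclear copies and ACSS2. Chi-square per degree of freedom between libraries of a group was 4.28 to 17.3, above counting noise, so none was treated as a library deposited again; this does not show that they came from separate cultures. Alternatives were scaling by RLE, by the upper quartile, by library totals or without mitochondrial genes, no count filter or at least 1 CPM in 3 libraries, DESeq2 1.42.0, voom of limma 3.58.1, an adjusted p of 0.01, a replicate block, omission of each library, and a GC and length correction with and without that block, the last chosen after seeing the data. For shares they were the mRNAs as the whole, shares without the rRNAs, and omission of each library. Of the marker genes 1 is not reported here.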

Additional observations from a re-analysis of the deposited data

How the results depend on the processing

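Of 396 member fold changes recomputed over 18 alternatives, 363 kept their direction and side of the threshold, 19 lost and 6 gained a call, and 8 changed sign, all 8 in MT-TC or MT-TN. MT-TC was at 0.0699 after the GC and length correction and 0.0671 with that correction and the replicate block, and between −0.260 and 0.0261 with each library left out. MT-TN was at 0.0622 and 0.0509 in the same fits and between −0.200 and 0.0340 with each library left out. None of these passed the test. With each library left out in turn the members that fell numbered 9 to 17 and the mRNAs 7 to 13, the lowest without shACSS2 replicate 1, and the ratio of mitochondrial shares ran from 0.365 to 0.476. After the GC and length correction 13 members (12 mRNAs) fell, where 10.8% of all genes did, and 11 (9 mRNAs) with the replicate block as well, where 10.9% did; the cause was not tested. The labels do not say that numbers pair libraries: deviations of same-numbered libraries correlated at −0.0428, −0.0664 and 0.112, and with the replicate block alone 17 members fell, all 13 mRNAs among them, where 10.1% of all genes did.

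Among nuclear genes of mitochondrial genome expression, with a library left out, 0 to 14 rose and 0 to 7 fell, and of the respiratory subunits 0 to 18 rose and 1 to 2 fell. At an adjusted p of 0.01 the expression genes gave 1 rise and 0 falls and the subunits 0 rises and 1 fall, with library totals 2 and 4 rises, without a count filter 18 subunits rose, with the replicate block 17, and with that block and the correction 17 expression genes and 27 subunits (17 expression genes with the correction alone). Of all genes 2.04% rose at an adjusted p of 0.01, 4.53% with library totals, 4.42% without a count filter, 7.91% with the block, 17.6% with block and correction and 17% with the correction alone. The cause was not tested. POLRMT changed sign with library totals (−0.0545), with voom (−0.000179) and without NS replicate 3 or shACSS2 replicate 2 or 3 (−0.0601 to 0.165 with each library left out), and POLG with library totals (−0.0131) and without shACSS2 replicate 2 (−0.0373 to 0.189), none past the test. Depth limits the 4 scarce tRNA genes tested and the 15 not tested.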
